A study of Mus musculus with 5 samples.

Results

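Freshly isolated mouse submandibular salivary gland was compared with 7-day mouse salivary gland organoids (mSGOs) grown from glands of the same kind, as measured by droplet single-cell RNA sequencing with unique molecular identifiers (UMIs, a count of RNA molecules). The members were barcodes with at least 200 detected genes and at most 5% of UMIs from mitochondrial genes. Of 13547 tissue barcodes 1418 passed, and of 7151 control mSGO barcodes 6872 passed, which is 8290 of 20698 barcodes in these libraries and against 54797 of 72788 in the whole series. Both groups came from C57BL/6 mice aged 8 to 12 weeks and neither was irradiated. The mSGOs were pooled from 4 animals and cultured in Matrigel with Wnt3a- and R-spondin1-conditioned medium, EGF, FGF2, insulin, N2, dexamethasone and the kinase inhibitor Y27632, while the tissue saw no culture. The labels do not give the number of tissue animals. Per the methods of the study all mice were female, a choice made because granular convoluted tubules belong to the male gland. Cells of both groups were dissociated with trypsin and 45000 propidium iodide-negative cells per sample were sorted. The study also holds 7-day mSGOs given 7 Gy of photons or protons on day 5, and 11-day untreated mSGOs. Each group is 1 library, so no difference below has a replicate check, no p-value can be given, and every interval (95%) covers counting error only. In pools of cells, fewer cells of a type and less RNA per cell cannot be told apart.

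The submandibular gland makes saliva in acinar cells, which package mucins, enzymes and other proteins and move salt and water. Ducts then modify the fluid. Granular convoluted tubules, a structure developed mainly in male mice, and striated ducts also make kallikreins, serine proteases of the glandular kallikrein family, together with EGF. Basal duct cells carry Krt5 and Krt14, lie on the basement membrane, and are studied as a source of progenitors. The gland also holds vessels, macrophages, fibroblasts and nerve.

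The depth of the libraries differed in kind. Kept tissue barcodes held 6008786 UMIs in all, with a median of 2392 UMIs but only 278 genes per barcode, and kept mSGO barcodes held 16396235 UMIs with medians of 904 UMIs and 448 genes. Of the deposited tissue barcodes 11597 had under 200 genes, against 0 in the mSGO library, and 1939 exceeded the mitochondrial limit, against 279. The 10 tissue barcodes with most UMIs held 20.1% of the kept tissue UMIs. Malat1, a nuclear-retained RNA, made up at least 1% of UMIs in 160 tissue barcodes (11.3%) and 1048 mSGO barcodes (15.3%), and it was absent from 677 tissue barcodes (47.7%) and 961 mSGO barcodes (13.98%). Of 6 nuclear-retained transcripts considered 1 was higher and 2 lower in tissue (median log2 ratio relative to the median gene of -0.63). The libraries shared 33 barcode sequences, of which 3 were kept in both.

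Tissue RNA was dominated by a few secreted proteins. Mucl2, which encodes a mucin-like protein, had 3145359 UMIs in tissue, 523460 CPM (counts in proportion to all kept UMIs of the library, on the usual scale on which 52.3% is 523460, 95% Poisson interval 522882 to 524039), and 7 UMIs in mSGOs, 0.427 CPM (0.172 to 0.88). It was 52.3% of all kept tissue UMIs. The next leading tissue genes were the secretoglobins Scgb1b27, at 77693 CPM, and Scgb2b27, at 48538 CPM. They were followed by Gm42418, which is not on the acinar product list, and then by Prol1, Scgb2b26, Car6 and Pip. Gm42418 was at 112433 CPM in tissue barcodes with under 200 genes, and at 8635 to 55755 CPM in the clusters of kept ones. The 20 genes with most tissue UMIs held 79.1% of tissue UMIs and 4.74% of mSGO UMIs. In mSGOs the leading gene, Malat1, held 2.23%, and the leading 20 held 22.01%. A single gene thus filled 50% of the tissue library, where 82 genes were needed in mSGOs.

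**Figure D1:**
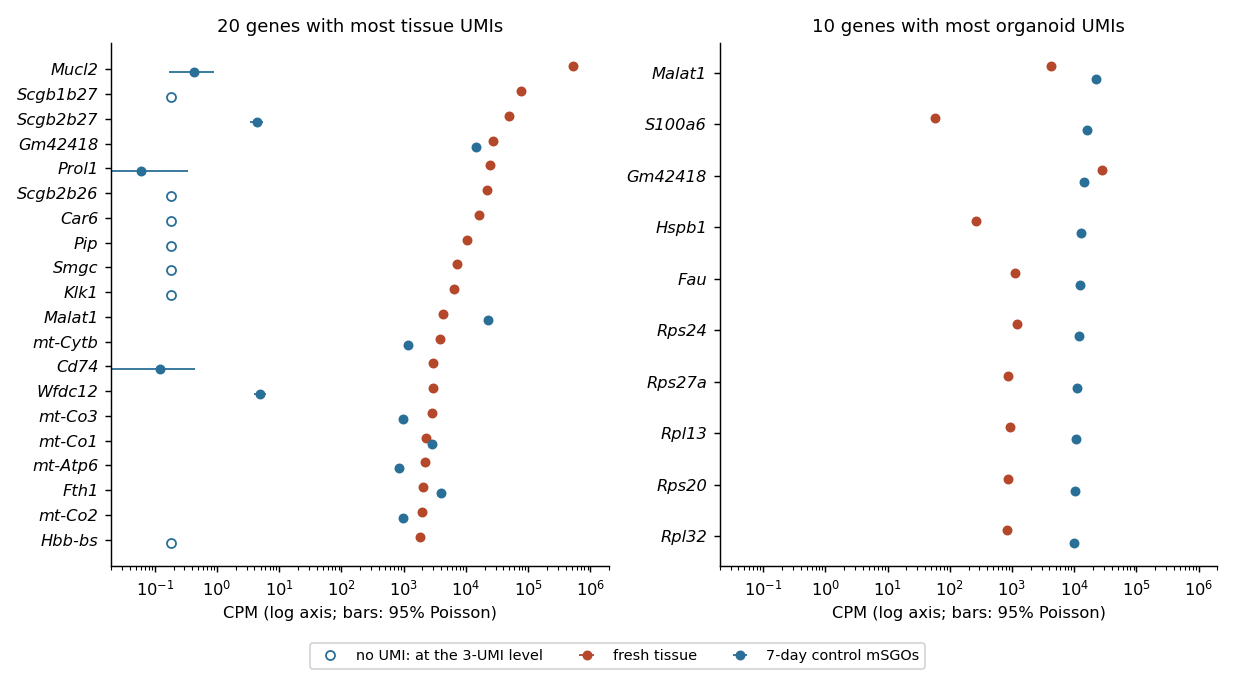
Level in CPM (log axis) of the 20 genes with most tissue UMIs (left) and the 10 genes with most mSGO UMIs (right) in fresh tissue (red) and 7-day control mSGOs (blue), 1 library each, with 95% Poisson intervals and open circles at the level of 3 UMIs for genes without a UMI. Mucl2 stands at 523460 CPM in tissue and 0.427 CPM in mSGOs, whereas S100a6 stands at 58.1 and 15889 CPM.

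Such a composition lowers every other gene when levels are scaled to all UMIs. Over the 9679 genes with at least 50 UMIs in both libraries together, the median log2 ratio of tissue to mSGO CPM (1 CPM added) was -1.21, a 2.31-fold lower level in tissue. After leaving the 20 leading tissue genes out of the totals the median was 0.76, so the typical remaining gene was 1.69-fold higher in tissue. Calls of higher or lower, list medians and the log2 ratios of single genes are therefore given relative to the median gene, while every fold of a named gene, with its interval or bound, is the plain ratio of the CPM values printed beside it. On that scale 1898 genes (19.6%) were at least 2-fold higher in tissue and 1902 (19.7%) at least 2-fold lower, which are the shares to read each gene list against. On plain CPM the counts were 710 higher (7.34%) and 5545 lower (57.3%). Without the 20 leading genes they were 4057 higher (42.0%) and 1011 lower (10.5%) of 9659. Of the genes considered, 169 had no UMI in mSGOs and 188 none in tissue. A gene with no UMI on one side passed the 50-UMI minimum through the other library alone and had to differ, so counts of list members describe these libraries and are no test. Among members considered, 12 of 16 acinar and 5 of 5 erythroid genes had no mSGO UMI, and 17 of 25 squamous genes had no tissue UMI.

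**Figure D2:**
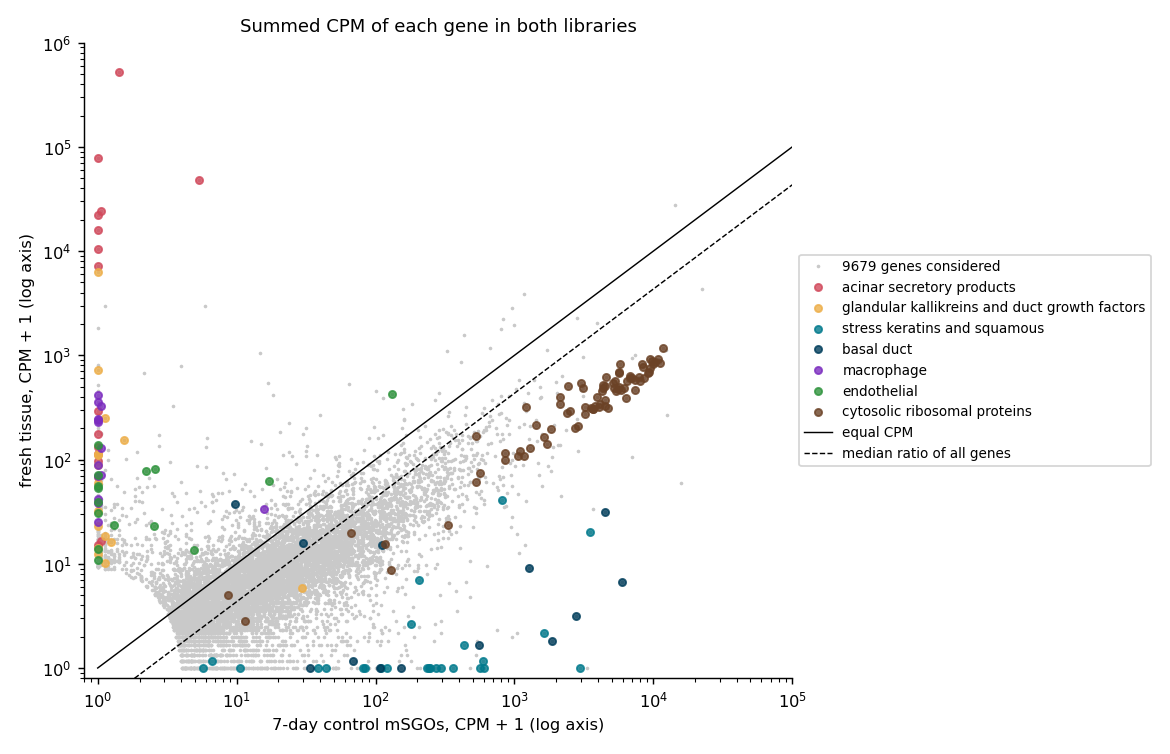
CPM plus 1 of each of the 9679 genes considered in 7-day control mSGOs (x, log axis) and fresh tissue (y, log axis), 1 library each, with the members of 7 gene lists in color, the line of equal CPM and a dashed line at the median log2 ratio of -1.21. Acinar products lie along the left edge, squamous genes along the bottom, and most cytosolic ribosomal proteins lie below the dashed line.

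Acinar secretory products were high in tissue and close to absent from mSGOs. All 16 members considered, of 25 in the gene list, were at least 2-fold higher in tissue, with a median relative log2 ratio of 11.72 (13.10 with genes lacking mSGO UMIs set at their bound). Summed, they reached 730907 CPM in tissue and 5 CPM in mSGOs. Prol1, a proline-rich secreted protein, had 147146 UMIs against 1, and the ratio of 401519 has a counting interval from 72064 to 15859300. Car6, the secreted carbonic anhydrase, had 96717 UMIs in tissue (16096 CPM) and 0 in mSGOs, which is at least 87971-fold higher when mSGOs are set at the 3 UMIs that a count of 0 allows. Pip, prolactin-induced protein, was at 10487 CPM against 0, at least 57318-fold higher. Smgc, submandibular gland protein C, was at 7156 CPM against 0, at least 39109-fold higher. Even the weaker products were one-sided: Lpo, the peroxidase of saliva, had 406 UMIs in tissue and Bpifa2, a salivary lipid-binding protein, had 84, with 0 of either in mSGOs. Dcpp1, Dcpp2 and Dcpp3 are near-identical copies, and Scgb2b26 and Scgb2b27 are close paralogs, so the split of UMIs within these groups is uncertain. Scgb2b27 kept 72 mSGO UMIs (4.39 CPM) and Wfdc12, a protease inhibitor among the leading tissue genes, kept 81 (4.94 CPM against 2970). The 7 mSGO UMIs of Mucl2 lay in 7 of 6872 barcodes (0.102%), and 1 of them lay in a barcode sequence also deposited for tissue.

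The regulators of the secretory program were measurable but far less abundant. Of 9 considered, 7 were at least 2-fold higher in tissue and 0 lower (median 4.54), and summed levels were 281.4 CPM in tissue and 261 CPM in mSGOs. Bhlha15 (Mist1), the transcription factor of mature secretory cells, had 221 tissue UMIs (36.8 CPM) and 0 in mSGOs, at least 201-fold higher. Etv1 was at 36.1 and 0.366 CPM, a 98.7-fold difference (44.6 to 271.9). Creb3l1, a factor of secretory capacity, was at 34.4 and 0.305 CPM. Xbp1, which drives the endoplasmic reticulum program, was at 66.2 and 33 CPM, a relative log2 ratio of 2.19. Ehf, an epithelial ETS factor, held much of the mSGO sum with 214.7 CPM against 51.3 in tissue. Endoplasmic reticulum folding and translocation genes differed less: 10 of 30 were higher, 1 was lower and the median was 0.54. On plain CPM 1 was higher and 12 were lower, with sums of 2632 CPM in tissue and 4744 CPM in mSGOs. Sdf2l1 led at 25.3 against 11.3 CPM (relative log2 2.31), and Hspa5 (BiP) was at 180.1 against 333.1 CPM (0.33).

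Fluid secretion genes split by gene. Of 22 considered, 10 were higher and 4 lower (median 0.59). Fxyd2, a subunit that tunes the sodium pump, was at 679.5 CPM in tissue and 1.16 CPM in mSGOs, a 586.4-fold difference (375 to 975). Slc12a2, the basolateral chloride uptake transporter of acinar cells, was at 158.9 and 5.12 CPM, a 31-fold difference (24.8 to 39.3). Aqp5, the apical acinar water channel, was at 201.2 and 30.4 CPM, a 6.61-fold difference on plain CPM (5.95 to 7.35) and a relative log2 ratio of 3.89, and so was present in mSGOs. Aqp3 was the reverse, with 0 tissue UMIs and 206.4 CPM in mSGOs, at least 413.5-fold lower in tissue. Atp1b1, a subunit of the sodium pump, was at 182.7 and 19.4 CPM (relative log2 4.38). Chrm3, the muscarinic receptor that triggers secretion, had 33 UMIs in tissue and 13 in mSGOs and stayed under the 50-UMI minimum. The chloride channel gene Clcn3 was at 20.1 and 30.4 CPM (0.64).

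Glandular kallikreins and duct growth factors followed the acinar pattern. Of 16 considered 15 were higher in tissue and 1, Nrtn (4.83 and 28.5 CPM), was lower (median 6.66). Klk1 was at 6319 CPM in tissue and 0 in mSGOs, at least 34538-fold higher. Klk1b26 was at 714.8 CPM and 0, at least 3907-fold higher, and Klk1b11 had 1485 UMIs against 2. Egf was at 15.1 and 0.244 CPM. The 13 kallikreins considered lie on chromosome 7 between 43950666 and 44229622 (RefSeq, GRCm38.p6), a span of 279 kb, and are close paralogs, so their individual levels are uncertain.

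Basal duct genes were the mirror image. Of 13 considered 11 were at least 2-fold lower in tissue and 1 was higher (median -5.92), with summed levels of 113.2 CPM in tissue and 17363 CPM in mSGOs. Krt14 had 34 UMIs in tissue (5.66 CPM) and 96954 in mSGOs (5913 CPM), a 1045-fold difference (747.8 to 1509). Krt5, its keratin partner, was at 0.832 and 1866 CPM, a 2242-fold difference (960.7 to 6906). Krt17 was at 2.16 and 2772 CPM. Trp63, the master regulator of basal epithelium, had 1 UMI in tissue and 1106 in mSGOs (67.5 CPM), and the ratio of 405.3 has an interval from 72.6 to 16024. Col17a1, the hemidesmosomal collagen, had 0 tissue UMIs and 105.8 CPM in mSGOs, at least 211.9-fold lower in tissue. The exception was Igfbp3, at 36.3 CPM in tissue and 8.66 in mSGOs. Of the 34 Krt14 UMIs in tissue 73.5% lay in 1 cluster of barcodes led by hemoglobin genes, at 37 CPM there.

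Stress keratins and squamous differentiation genes were found mainly in mSGOs. The 25 considered, of 30 in the gene list, were lower in tissue (median -6.22, or -6.71 with genes lacking tissue UMIs at their bound). Their sum was 69.4 CPM in tissue and 13596 CPM in mSGOs. Krt6a, a keratin of wounded and activated epithelium, was at 1.16 and 1623 CPM, a 1393-fold difference (675.9 to 3465). Krtdap, a keratinocyte differentiation protein, had 0 tissue UMIs and 601.1 CPM in mSGOs, at least 1204-fold lower in tissue. Sprr1a, a cornified envelope precursor, had 0 and 568.7 CPM, at least 1139-fold lower. S100a14, a list member and calcium-binding protein of stratified epithelium, had 0 and 2942 CPM, at least 5892-fold lower. Sprr2f, a cornified envelope gene outside the list, gave the lowest ratio of the 9679 genes, with 0 tissue UMIs and 3338 CPM in mSGOs, at least 6687-fold lower. Dmkn, an epidermal secreted protein, was at 1.16 and 1043 CPM. Outside the list too, S100a6, a calcium-binding protein and the second most abundant transcript of mSGOs, was at 58.1 and 15889 CPM, a 273.6-fold difference (246.3 to 304.7). In the list 8 members lie on chromosome 3 between 90526849 and 92573790, the region of small proline-rich and S100 genes. The copies of Sprr2 are near-identical.

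Promoter sequence was read for genes at both ends of the ratio, to show what the most one-sided genes carry next to their start sites. The 250 bases before each RefSeq start (GRCm38.p6) were searched on both strands for the motif TATAAA, known as the TATA box. The same bases were searched for the AP-1 site, TGANTCA, which is its own reverse complement, and for CATATG, a single form of the E-box. Genes with several starts count as holding a motif where any start has it. Of 17 squamous genes with a promoter, 10 held the AP-1 motif (58.8%) and 9 held the TATA motif (52.9%), against 5.57% and 7.68% of the 7626 genes considered that had a promoter. The 10 with the AP-1 motif were Krt13, Sprr1a, Sprr1b, Sprr2d, Sprr2e, Sprr2h, Sprr2i, Krtdap, Sbsn and Ivl, of which the Sprr genes share sequence and are not independent. Of 15 acinar products 1 held the AP-1 motif and 4 held the TATA motif, of 15 kallikrein-list genes 0 held either, and of 59 ribosomal protein genes 2 and 4 did. The E-box form CATATG was in 0 of the 15 acinar promoters and in 1.82% of all 7626, and other forms of the E-box were not searched. The promoters of 6 genes are printed 5′ to 3′ on the gene's strand, with forward-strand matches to the TATA and AP-1 motifs in capitals.
Mucl2, chr15:103899313-103899562, minus strand: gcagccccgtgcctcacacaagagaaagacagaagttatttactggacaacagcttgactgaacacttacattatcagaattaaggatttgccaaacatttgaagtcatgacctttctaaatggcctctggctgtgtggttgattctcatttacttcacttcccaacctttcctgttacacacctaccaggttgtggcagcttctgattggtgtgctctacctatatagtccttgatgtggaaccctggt
Pip, chr6:41847299-41847548, plus strand: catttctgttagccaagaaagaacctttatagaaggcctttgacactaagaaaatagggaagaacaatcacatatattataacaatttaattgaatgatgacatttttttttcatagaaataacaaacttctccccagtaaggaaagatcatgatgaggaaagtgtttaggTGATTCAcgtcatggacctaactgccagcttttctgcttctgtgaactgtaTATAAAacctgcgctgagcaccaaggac
Smgc, chr15:91838078-91838327, plus strand: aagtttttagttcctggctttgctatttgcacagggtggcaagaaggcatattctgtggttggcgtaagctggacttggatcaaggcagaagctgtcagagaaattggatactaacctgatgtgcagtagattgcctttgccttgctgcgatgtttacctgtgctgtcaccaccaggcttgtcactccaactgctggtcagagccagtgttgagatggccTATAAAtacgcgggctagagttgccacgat
Sprr2f, chr3:92364937-92365186, plus strand: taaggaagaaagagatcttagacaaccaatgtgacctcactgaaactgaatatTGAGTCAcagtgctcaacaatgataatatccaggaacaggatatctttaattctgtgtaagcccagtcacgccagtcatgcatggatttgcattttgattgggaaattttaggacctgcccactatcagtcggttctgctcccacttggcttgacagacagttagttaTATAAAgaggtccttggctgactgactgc
Krtdap, chr7:30787655-30787904, plus strand: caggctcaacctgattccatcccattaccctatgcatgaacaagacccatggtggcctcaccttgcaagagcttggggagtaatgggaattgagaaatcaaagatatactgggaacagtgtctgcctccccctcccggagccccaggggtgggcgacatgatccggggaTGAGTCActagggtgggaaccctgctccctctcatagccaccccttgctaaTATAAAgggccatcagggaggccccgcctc
Sprr1a, chr3:92485882-92486131, minus strand: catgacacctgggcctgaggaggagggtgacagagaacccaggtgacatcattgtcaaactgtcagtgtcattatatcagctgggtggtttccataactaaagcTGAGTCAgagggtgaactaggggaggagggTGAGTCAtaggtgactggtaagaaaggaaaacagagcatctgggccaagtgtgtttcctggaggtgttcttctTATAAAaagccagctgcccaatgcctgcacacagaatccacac
In these printed promoters the TATA match starts 28 bases before the start site in Pip, 30 in Smgc and Krtdap, 29 in Sprr2f and 43 in Sprr1a, and Mucl2 has no match to either motif in this window.

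Most desmosome genes and some integrin and laminin genes were lower in tissue, and Perp, Dst and Col17a1 of these lists are also on the basal duct list. Of 10 desmosome genes 8 were lower and 1, Dsg2 (19.6 and 17.3 CPM, 1.39), higher (median -3.41). Perp was at 30.1 CPM in tissue and 4469 in mSGOs, Pkp1 at 1.5 and 203.2, Dsp at 21.6 and 501.6, and Jup at 18 and 227.1 CPM. Of 15 integrin and laminin genes 9 were lower, 0 higher and the other 6 under 2-fold (median -1.64). Lamb3, a chain of the basement membrane laminin, was at 0.999 and 64.6 CPM, and Itgb4, the integrin that binds it, at 6.99 and 97.5 CPM.

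Luminal duct genes were mixed. Of 17 considered 12 were lower in tissue and 2 higher (median -1.39), with sums of 903.7 CPM in tissue and 7896 CPM in mSGOs. With only the tissue barcodes of the duct-like cluster 6 were lower, and with barcodes thinned to 1000 UMIs 7 were. Wfdc2, a secreted protease inhibitor of duct cells, was at 76.2 and 1846 CPM, a 24.2-fold difference on plain CPM (22.1 to 26.6) and a relative log2 ratio of -3.37. Krt7 was at 34.8 and 862.7 CPM, a 24.8-fold difference on plain CPM (21.6 to 28.6) and a relative log2 ratio of -3.38. The tight junction gene Cldn4 was at 21.3 and 938.1 CPM, while Cldn3 was at 48.9 and 40.7 CPM (relative log2 1.47) and the chemokine Cxcl17 at 30.5 and 8.54 CPM (2.93). The simple keratins were nearer the median gene. Krt18 was at 289.2 and 1211 CPM (-0.85) and Krt8 at 65.2 and 207.8 CPM (-0.45), under 2-fold from it. Epcam, the pan-epithelial adhesion molecule, was at 150.9 and 783.4 CPM (-1.16, or -0.95 relative to the median gene when the 20 leading genes are left out of the totals), while in the tissue barcodes of the duct-like cluster alone its relative log2 ratio turned to 0.56, and Clic1 was at 113.5 and 632 CPM (-1.26).

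Of the stem/progenitor lists, which hold the markers the study uses to name these cells and further progenitor genes, the first was mixed and the second mostly lower in tissue. For stem/progenitor I, 2 of 7 genes were lower in tissue and 1 higher (median -0.50). Of the naming markers, Cd164 was at 58.9 and 76.8 CPM (0.83), Sox9 at 34.8 and 83.5 CPM (-0.03) and Cd24a at 73.1 and 240.4 CPM (-0.50), none of them 2-fold from the median gene. The genes that were lower, Hmga2 and Aldh3a1, are not naming markers. Hmga2, an architectural factor of growing cells, had 0 tissue UMIs and 99.5 CPM in mSGOs, at least 199.4-fold lower in tissue. For stem/progenitor II, 7 of 9 were lower and 0 higher (median -1.97). Of the naming markers, Itgb1 was at 59.9 and 274.4 CPM (-0.97), Cd44 at 16.1 and 92.6 CPM (-1.24) and Trp63, given above with the basal genes, at 0.166 and 67.5 CPM (-4.67). Among the others Nt5e was at 0.333 and 58.7 CPM (-4.28), Itgb4 at 6.99 and 97.5 CPM (-2.41), Cd9 at 174.2 and 1582 CPM (-1.97), Ly6a at 149.8 and 1464 CPM (-2.07), and Alcam at 12 and 33.7 CPM (-0.21). Tissue Ly6a came largely from endothelial-like barcodes, with 70.2% of its UMIs in 1 cluster of 68 barcodes. Of tissue Itgb1 UMIs 28.1% lay in that cluster, 24.2% in the cluster led by MHC class II genes and 17.8% in the T and NK cell-like cluster. Of tissue Cd44 UMIs 59.8% lay in the cluster led by Smgc. Of 12 myoepithelial genes 3 were considered. Tpm2 was at 1.66 and 265.1 CPM and Csrp1 at 18.6 and 122 CPM, both lower, and Sparc at 57.6 and 66.9 CPM (relative log2 0.996). Of tissue Sparc UMIs 84.7% lay in the same endothelial-like cluster of 68 barcodes. The list median turned with at least 10 UMIs per gene, and the defining marker Acta2 had 23 tissue and 6 mSGO UMIs.

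Signaling and stress pathway genes differed by list. Of 14 Wnt targets and feedback genes 9 were lower and 1 higher (median -1.86), with Wnt10a at 0.832 and 86.7 CPM and the feedback inhibitor Axin2 at 0.499 and 10.6 CPM. Of 13 glucocorticoid targets 10 were lower and 0 higher (median -1.80), with Fkbp5 at 4.33 and 113.6 CPM, Tsc22d3 at 16.8 and 305.4 CPM and Mt2 at 13.1 and 406.3 CPM. Of 17 EGF receptor ligands and MAPK feedback genes 10 were lower and 3 higher (median -1.93), with Areg at 1.16 and 143 CPM and Egfr itself at 2.16 and 31.2 CPM. Notch pathway genes were split, with 5 of 16 lower, 2 higher and a median of -0.10. The receptor Notch1 was at 8.15 and 142.6 CPM, a 17.5-fold difference on plain CPM (13.2 to 23.7) and a relative log2 ratio of -2.76, the ligands Jag1 and Jag2 were at 2.5 and 74.5 and at 2.66 and 60.7 CPM, and the target Hes1 was at 18.8 and 55.7 CPM (-0.31). The smaller endothelial-like cluster (68 barcodes) held 53.1% of tissue Notch1 UMIs, 26.7% of Jag1, 62.5% of Jag2 and 29.2% of Hes1 UMIs. Notch1 was at 101.7 CPM there and at 4.36 CPM in the cluster led by Smgc. Of 21 p53 targets 10 were lower and 3 higher (median -0.91), with Cdkn1a at 19.1 and 380 CPM. No part of the medium was varied within this pair of libraries, so its part in the Wnt, glucocorticoid and EGF receptor differences was not tested.

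**Figure D3:**
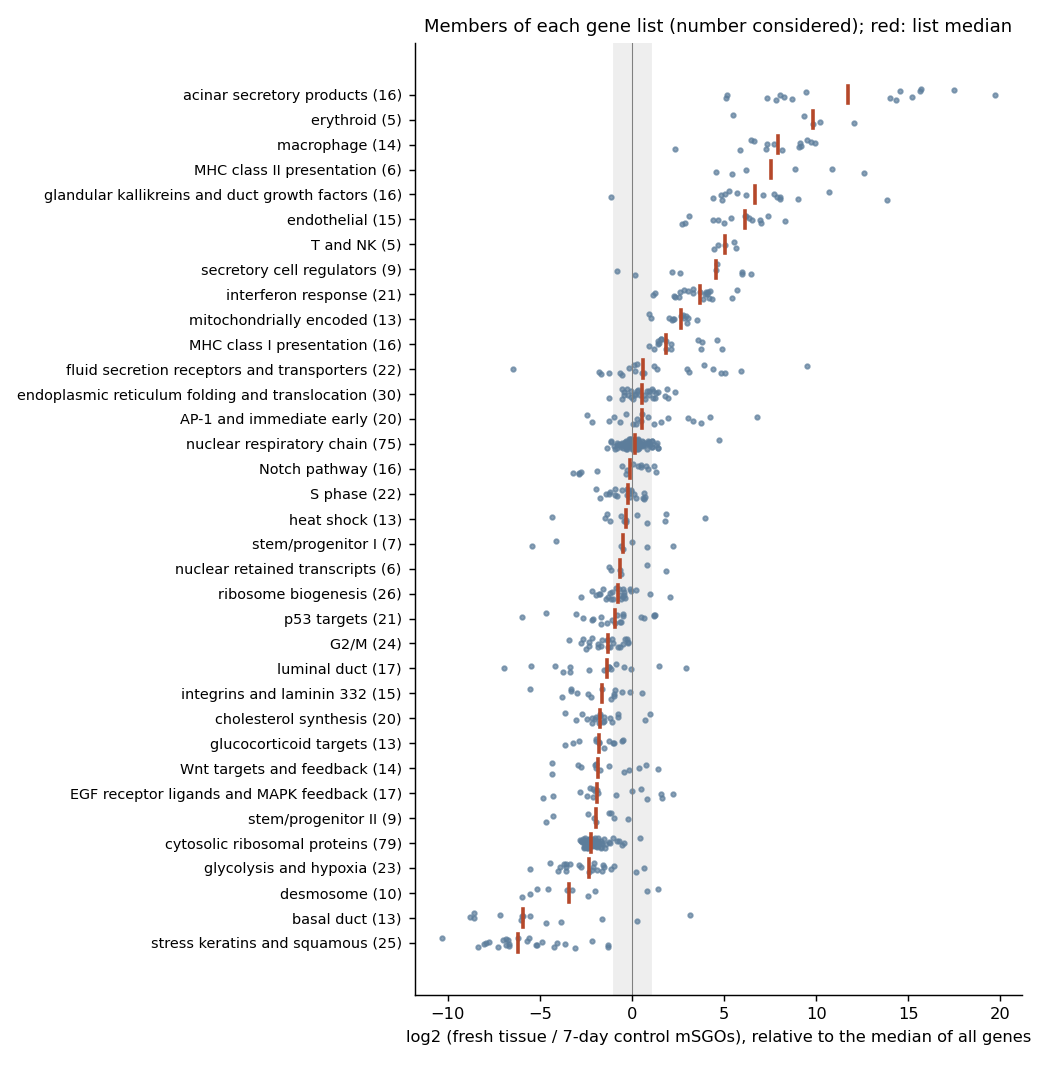
Relative log2 ratio (fresh tissue over 7-day control mSGOs, minus the median of all genes) of each member of the gene lists with at least 5 members considered, 1 library each, with list medians in red and the gray band at less than 2-fold. Acinar products have a median of 11.72, squamous genes -6.22 and nuclear respiratory chain genes 0.13.

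Ribosomal protein, glycolysis, cholesterol synthesis and G2/M genes were mostly lower in tissue, while S-phase and heat shock genes were not. All but 5 of 79 cytosolic ribosomal protein genes were lower (74, with 0 higher, median -2.21), and their sum was 33751 CPM in tissue and 360527 CPM in mSGOs, or 3.38% and 36.1% of UMIs. Rps24 was at 1187 and 11734 CPM, a 9.89-fold difference on plain CPM (9.66 to 10.1) and a relative log2 ratio of -2.10. Of 23 glycolysis and hypoxia genes 21 were lower and 0 higher (median -2.35). Pgk1 was at 32.8 and 3648 CPM, a 111.3-fold difference on plain CPM (96.7 to 128.6, relative log2 -5.55), Aldoa at 119 and 2860 CPM, and the glucose carrier Slc2a1 at 2 and 90.3 CPM. Of 20 cholesterol synthesis genes 16 were lower and 0 higher (median -1.74), with Msmo1 at 6.99 and 233.5 CPM and Fdps at 16.6 and 333.9 CPM. Of 24 G2/M genes 17 were lower and 0 higher (median -1.33), against 5 of 22 S-phase genes (median -0.23). Ube2c was at 4.83 and 144.3 CPM, Top2a at 8.15 and 48.1 CPM (-1.21) and Mki67 at 7.99 and 24.3 CPM (-0.29). Of tissue G2/M UMIs 32.2% lay in the T and NK cell-like cluster and 34.0% in the cluster led by MHC class II genes. Of 26 ribosome biogenesis genes 12 were lower and 1 higher (median -0.79), and of 13 heat shock genes 4 were lower and 3 higher (median -0.36). Hspb1, a small heat shock protein, was at 265.3 and 12623 CPM, a 47.6-fold difference on plain CPM (45.3 to 50, relative log2 -4.36), while the inducible Hspa1a was at 265.4 and 38.5 CPM, 6.89-fold higher in tissue on plain CPM (6.28 to 7.56, relative log2 3.96). Nuclear genes of the respiratory chain stayed near the median gene, with 9 of 75 higher, 3 lower and a median of 0.13, whereas 12 of 13 mitochondrially encoded genes were higher in tissue (median 2.63). The sum of the latter was 17648 and 8621 CPM, both under a limit of 5% per barcode.

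Macrophage genes were present in tissue and almost absent from mSGOs, whereas MHC class I and interferon response genes were found in both libraries. All 14 macrophage genes considered were higher in tissue (median 7.90), with a sum of 2307 CPM against 14.8 CPM. The complement genes C1qa and C1qb had 2156 and 2489 tissue UMIs and 0 in mSGOs, at least 1961- and 2264-fold higher. All 6 MHC class II genes considered were higher (median 7.52). Cd74, the invariant chain, had 17977 tissue UMIs (2992 CPM) and 2 in mSGOs, and H2-Aa had 4828 and 0, at least 4391-fold higher. H2-Ab1 and H2-Eb1, however, had 260 and 49 mSGO UMIs, at 15.9 and 2.99 CPM. Of 16 MHC class I presentation genes 15 were higher and 0 lower (median 1.82), but on plain CPM 5 were higher. Their sum was 1493 CPM in tissue and 939.2 CPM in mSGOs, with B2m at 338.7 and 181.4 CPM. All 21 interferon response genes considered were higher (median 3.69), with a sum of 879.4 and 120.5 CPM, and with Ifi27l2a at 412.2 and 17.3 CPM, Irf1 at 45.9 and 5.61 CPM and Isg15 at 43.8 and 20.6 CPM. Outside the immune, endothelial, erythroid and MHC class II-led clusters 9 of 10 interferon genes and 7 of 14 MHC class I genes that reached 50 UMIs were higher (medians 2.14 and 1.00), and B2m turned to -0.0854. In the duct-like cluster the counts were 9 of 10 and 4 of 13. Of 16 T and NK cell genes 5 were considered, and all were higher (median 5.03). Cd3e and Cd3d, which encode subunits of the T cell receptor complex, however, had 0 tissue UMIs. Of 10 B and plasma cell genes only Ighm reached 50 UMIs (98 in tissue and 1 in mSGOs), and Ms4a1, a B cell surface marker, had 0 in either library.

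Vessel and blood genes were also on the tissue side. All 15 endothelial genes considered were higher in tissue (median 6.15). Plvap, of fenestrated endothelium, was at 137.5 CPM and 0, at least 751.3-fold higher, and Pecam1 was at 76.9 and 1.22 CPM, a 63-fold difference (40.3 to 104.2). Fabp4 was the least one-sided of the abundant members, at 421.5 and 131.1 CPM. All 5 erythroid genes were higher, with Hbb-bs at 1818 CPM and 0, at least 9939-fold higher. Stromal markers were scarce. Of the fibroblast markers the collagens Col1a1, Col1a2 and Col3a1 had 1, 7 and 3 tissue UMIs and Lum and Dpt 0, while Dcn had 45 and Gsn, which mSGOs also held, 77. The pericyte marker Pdgfrb had 0. Of the lists with few members considered, neutrophil and mast cells had 3 of 3 higher, fibroblasts 1 higher and 1 lower of 2, and Schwann cells 1 lower of 2. On the pericyte list only Ndufa4l2 was considered, and it was lower, with 0 tissue UMIs. Of the 7 pericyte genes 5 had no mSGO UMI. The pericyte markers Rgs5, Kcnj8 and Abcc9 were detected in tissue but stayed under the 50-UMI minimum. Immediate early genes were split, with 8 of 20 higher and 4 lower (median 0.53). Fos was at 528.7 and 63.2 CPM, 8.36-fold higher in tissue on plain CPM (7.79 to 8.98, relative log2 4.25), and Klf2, a flow-induced factor of endothelium, was at 133.1 and 1.77 CPM. Of tissue Fos UMIs 39.3% lay in the smaller endothelial-like cluster described next and 27.5% in the cluster led by Smgc.

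Clustering showed which tissue barcodes carried these transcripts. The 1418 barcodes fell into 10 clusters, of which 7 could be named from the fixed markers: acinar-like (318 barcodes), erythroid-like (256), macrophage-like (118), striated or granular duct-like (95, a name taken from the marker list and shared by both duct types), endothelial-like (92 and 68) and T and NK cell-like (49). The other 3 stayed unnamed. Cluster 3 (249 barcodes) was led by kallikreins at modest excess, cluster 4 (124 barcodes) by Smgc, Prol1 and Etv1, and cluster 10 (49 barcodes) by H2-Ab1, S100a8 and Apoe. Cluster 4 held 38.2% of all tissue UMIs and had medians of 6920 UMIs and 806 genes. It held 76.9% of Smgc UMIs, 75.6% of Etv1 UMIs and 59.3% of Bhlha15 UMIs. The striated or granular duct-like cluster held 3.37% of UMIs and 42.5% of Klk1 UMIs, with Klk1 at 79787 CPM there and 320 CPM in cluster 4. It also had the highest Epcam level, at 682 CPM, and Krt7 was at 262 CPM. The smaller endothelial-like cluster held 91.8% of Pecam1 UMIs and had a median of 1369 genes. Cluster 10 held 66.9% of Cd74 UMIs and 67.3% of C1qa UMIs, with a median of 1863 genes.

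Acinar transcripts were not confined to acinar-like barcodes. Mucl2 was detected in all 1418 kept tissue barcodes, at a median of 58.4% of a barcode's UMIs. It was 63.6% of UMIs in the acinar-like cluster, 59.1% in the erythroid-like cluster, 52.3% in the macrophage-like cluster and 57.4% in the larger endothelial-like cluster, cell types that should lack it. It was lowest in the smaller endothelial-like cluster (18.9%) and cluster 10 (11.6%), whose barcodes had the most genes. In the 11597 tissue barcodes under 200 genes it was 56.1% of UMIs, at a median of 81 genes per barcode. The summed share of acinar products in those barcodes was 74.5%, against 73.1% over kept barcodes and 76.9% in the erythroid-like cluster. The part of RNA from outside the cells in these levels was not tested. The kallikrein list likewise reached 0.765% of UMIs in the erythroid-like cluster and 10.3% in the duct-like cluster.

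**Figure D4:**
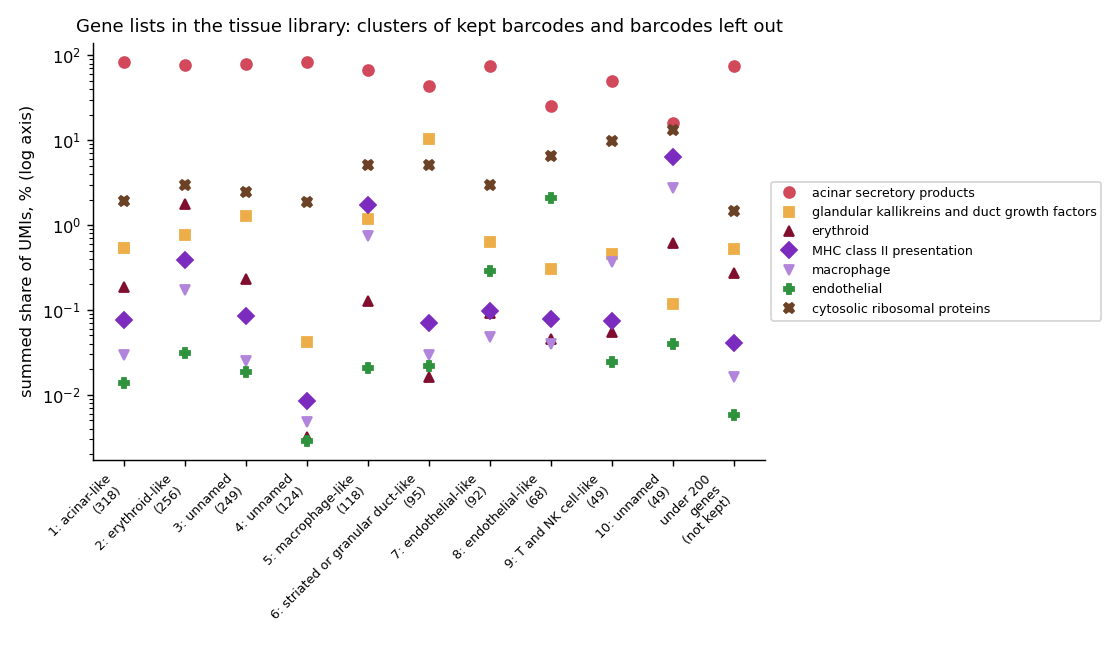
Summed share of UMIs (percent, log axis) of 7 gene lists in each of the 10 clusters of kept tissue barcodes (number of barcodes in brackets) and in the 11597 tissue barcodes with under 200 genes. Acinar products take 15.8% to 84.3% in every cluster, whereas endothelial, MHC class II and kallikrein genes peak in clusters 8, 10 and 6.

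Limiting both libraries to barcodes whose UMIs were 1% or more Malat1 gave a smaller composition shift. In the 160 tissue barcodes of this kind Mucl2 was 19.2% of UMIs, the median was 1414 genes, and the median log2 ratio against the 1048 mSGO barcodes was -0.09. Of 7910 genes considered there, 1558 (19.7%) were higher and 1643 (20.8%) lower in tissue. All 11 acinar products considered were higher (median 12.84), all 23 squamous genes lower (-6.78), 10 of 13 basal genes lower (-6.71), 69 of 79 ribosomal protein genes lower (-1.74) and all 14 interferon genes higher (4.63). Krt14 was at 7.51 and 5115 CPM and Klk1 at 7808 and 0 CPM. Of the kallikrein list only 6 reached 50 UMIs there, with 5 higher and 1 lower. Of the secretory regulators 4 reached 50 UMIs, with 2 higher and 1 lower (0.42), and 13 of 20 immediate early genes were higher (1.43). Of mitochondrially encoded genes 7 of 13 were higher (1.03). Of these tissue barcodes' UMIs the endothelial list took 6286 CPM and MHC class II 23620 CPM, against 1106 and 5195 CPM over all kept barcodes.

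The other mSGO libraries place the control beside older and irradiated cultures. All comparisons here share the tissue library. With photon or proton mSGOs in place of the control, the basal keratins were close to the control, with Krt14 at 5998 and 6125 CPM and Krt5 at 2120 and 1884 CPM. Klk1 had 1 UMI in each. Mucl2 was not close, at 5.03 CPM (146 UMIs) with photons and 0.972 CPM (27 UMIs) with protons against 0.427 CPM (7 UMIs) in the control. Aqp5 was lower than in the control, at 9.31 and 8.06 CPM. In 11-day mSGOs, run separately and at a median of 3078 UMIs and 1611 genes per barcode, some gaps to tissue were smaller and some turned. The single levels that follow are compared on plain CPM, on which the median gene stood at a log2 ratio of -1.96 against these mSGOs. Fxyd2, at 197.1 CPM, and Slc12a2, at 43.1 CPM, stayed below tissue by less than in 7-day mSGOs. Chrm3, at 102 CPM, and Atp1b1, at 630.6 CPM, were below tissue in 7-day mSGOs and above it here. Krt6a was at 107.7, Sprr2f at 50.6 and Pgk1 at 380.8 CPM, nearer to tissue. Sprr1a went the other way, to 2441 CPM, and Wfdc2 to 5802 CPM. Against 11-day mSGOs only 6 ribosomal protein genes were at least 2-fold lower in tissue instead of 74, 12 of the glycolysis genes instead of 21 and 3 of the cholesterol genes instead of 16. Of the G2/M genes 0 were lower instead of 17 and the list median turned, as did Top2a (1.28), Ube2c (0.28) and Fdps (0.24). Smgc had 0 UMIs and Mucl2 0 UMIs in 11-day mSGOs, and Klk1 was at 1.67 CPM. The 11-day matrix also names another software version (7.0.0, against 3.0.1 in the other 4) and a longer gene list (32285 genes against 31053). With 1 library per time point, age, animals (another batch, per the labels), run and these differences in processing cannot be told apart, and this holds for each 11-day value above.

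**Figure D5:**
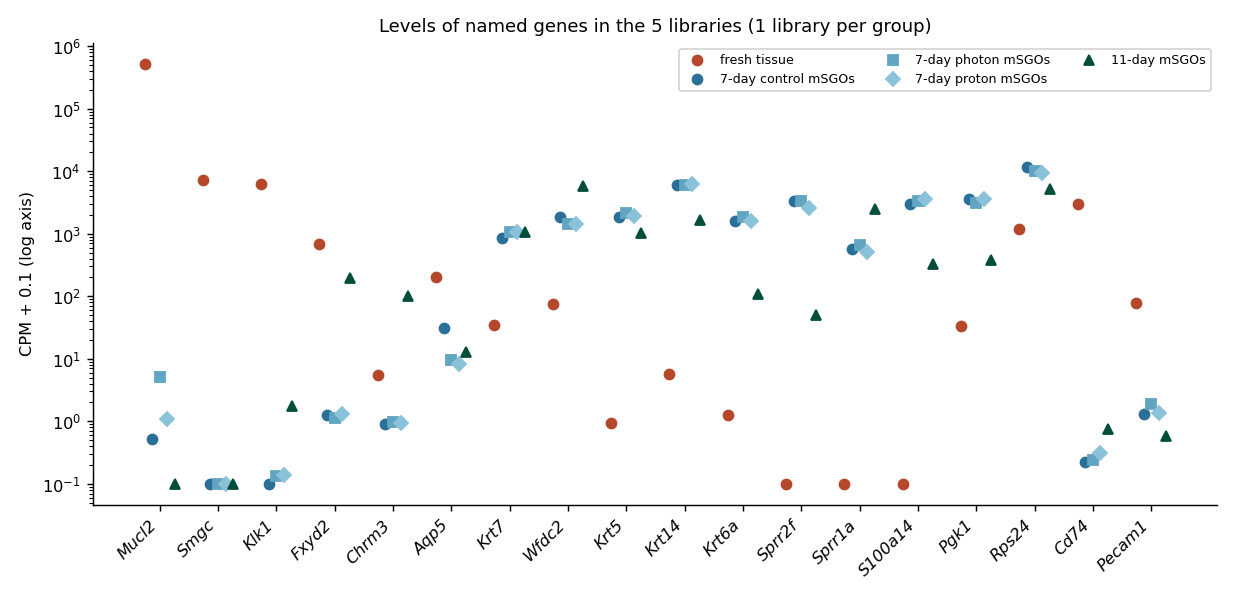
CPM plus 0.1 (log axis) of 18 named genes in fresh tissue, the control, photon and proton 7-day mSGOs and the 11-day mSGOs, 1 library each, with a point per library. Smgc is at 0 in every mSGO library drawn and Klk1 at no more than 1.67 CPM, and Chrm3 reaches 102 CPM in 11-day mSGOs against 5.49 CPM in tissue.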

How the data were processed

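Matrices of UMI counts per gene and barcode, from 10x single-cell RNA-seq, were deposited by the authors for 5 libraries, of which 2 were compared. Per the submitters' processing notes the reads were processed with Cell Ranger 5 on mm10. The matrix headers name software version 3.0.1 for the tissue and 7-day libraries and 7.0.0 for the 11-day library, whose gene list is longer, and the paper's methods another mouse build, so coordinates and promoters are RefSeq's for GRCm38.p6 (the mm10 build) by gene symbol (the E-box searched was CATATG), and 9433 of 9679 symbols matched. All deposited barcodes had at least 500 UMIs. Counts were summed over barcodes with at least 200 genes and at most 5% mitochondrial UMIs and scaled to CPM. Ratios used 1 CPM as pseudocount. Genes with at least 50 UMIs in both libraries together were considered, and at least 2-fold from the median gene was called. Intervals are exact Poisson for CPM and exact conditional binomial for ratios. A count of 0 was set at 3 UMIs per library for bounds. No test was run, since each group holds 1 library. The computation was tested on simulated data.

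Tissue barcodes were clustered with scanpy 1.11.5 (2000 variable genes, 30 principal components, 15 neighbors, Leiden resolution 0.8). A cluster was named where at least 3 markers of a type were 2-fold above the other barcodes and at least 1 was among its 10 leading genes, a rule that was not part of the fixed design. Scrublet marked 9 tissue barcodes (0.635%) and 378 mSGO barcodes (5.50%, a threshold set at the expected rate) as doublets, which were kept except in 1 alternative. Named genes were those the study names, the 20 with most tissue UMIs, the 10 with most mSGO UMIs, the 10 highest and 10 lowest ratios (at least 200 UMIs and 20 CPM), and up to 4 per list by CPM, and other members printed were chosen after their values were seen. The comparison, the 41 gene lists and these rules were chosen with earlier results of these data known. Alternatives covered pseudocount, scaling, gene and barcode filters, doublets, thinning, clusters and the other mSGO libraries. Some items are not reported here.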

Additional observations from a re-analysis of the deposited data

Results flagged for a closer look

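Most deposited tissue UMIs lay in barcodes outside the comparison. Barcodes with under 200 detected genes held 11411201 tissue UMIs, 57.7% of the deposited total, against 0 in the control mSGO library. Mucl2 was 56.1% of their UMIs and the acinar products together 74.5%, beside 52.3% and 73.1% in the kept barcodes, and ribosomal protein genes were 1.45%, beside 3.38%.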

How the results depend on the processing

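No paired analysis was possible because each group holds 1 library, and for the same reason no library could be left out. The median log2 ratio of all genes moved with nearly every setting, and the cause was not tested beyond each setting's own construction: -1.36 and -0.59 with pseudocounts of 0.1 and 10 CPM, 0.76 (reversed) with totals outside the 20 leading tissue genes, -0.29 with median-of-ratios scaling, -0.91 and -1.56 with at least 10 and 200 UMIs per gene, -1.71 with no minimum of genes per barcode, -0.90 and -2.11 with at least 500 and 2500 genes, -1.13 with 200 to 2500 genes, -1.003 with no mitochondrial limit, -0.0868 with Malat1 at 1% or more, -1.67 with barcodes thinned to 1000 UMIs, -1.47 outside clusters named immune or endothelial, -0.76 in the duct-like cluster and -1.96 against 11-day mSGOs. With alternatives chosen after seeing the data it was -1.04 without the 10 tissue barcodes with most UMIs and -1.75 outside immune, endothelial, erythroid and MHC class II-led clusters. Of plain CPM calls 11.4% were on the higher side, against 80.1% with totals outside the 20 genes, 34.6% with median-of-ratios scaling and 44.4% with Malat1 at 1% or more. Of 9679 genes 1898 were higher (19.6%) and 1902 lower (19.7%). With 10 CPM added the higher genes became 755 (7.80%), and in the duct-like cluster the lower genes became 2903 of 8852 (32.8%). Other counts fell with the number of genes considered, with shares nearer to these: 995 higher (16.6%) and 1161 lower (19.3%) of 6009 with at least 200 UMIs, 901 (16.3%) and 1098 (19.8%) of 5540 with at least 2500 genes, and 927 (18.6%) and 992 (19.9%) of 4984 after thinning.

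Counts of list members, each of the members still considered, moved as follows. In the duct-like cluster, 8 of 8 acinar, 6 of 17 luminal duct (lower), 9 of 10 interferon, 4 of 13 MHC class I, 3 of 3 MHC class II, 0 of 1 macrophage, 0 of 3 endothelial and 0 of 2 neutrophil and mast cell genes were called, with the macrophage and neutrophil medians reversed. Outside immune, endothelial, erythroid and MHC class II-led clusters the counts were 9 of 10 interferon, 7 of 14 MHC class I, 6 of 7 macrophage, 0 of 3 endothelial and 0 of 2 neutrophil genes (the last reversed), and outside clusters named immune or endothelial 2 of 5 endothelial genes. With at least 200 UMIs per gene, 8 of 9 kallikrein-list, 7 of 7 interferon and 9 of 9 endothelial genes were higher, and with at least 2500 genes per barcode (26 tissue barcodes) 3 of 4 kallikrein-list, 3 of 4 interferon, 9 of 9 MHC class I and 1 of 2 endothelial. Malat1 at 1% or more gave 5 of 6 kallikrein-list genes, thinning 7 of 17 luminal (lower) and 7 of 7 interferon genes, and 10 CPM added 10 of 20 cholesterol and 9 of 16 MHC class I genes. Against 11-day mSGOs 12 of 23 glycolysis, 3 of 20 cholesterol, 6 of 79 ribosomal protein and 0 of 24 G2/M genes were lower (the last reversed), and the myoepithelial median reversed with 2 of 5 lower, as it did with at least 10 UMIs per gene (2 of 7 lower).

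Of 3953 named-gene values under 23 alternatives 23 reversed, in 18 of 175 genes. Against 11-day mSGOs these were Hspe1 1.64, Fn1 -0.63, Nop10 0.066, Ube2c 0.28, Fdps 0.24, Uqcrh 0.0642, Cenpa 1.08, Emp1 0.0089, Top2a 1.28, Tk1 0.97, Atp5g2 0.33 and Clic1 0.26 (relative log2). Outside the immune, endothelial, erythroid and MHC class II-led clusters they were Fn1 -0.22, B2m -0.0854, S100a8 -1.39 and S100a9 -1.83. In the duct-like cluster they were S100a8 -2.38, S100a9 -3.60, Wnt4 0.62, Mt1 0.17, Atp5g2 0.10 and Epcam 0.56, and with at least 2500 genes Top2a was 0.38. Leiden resolutions of 0.4 and 1.2 gave 7 and 13 clusters, 5 and 8 of them named, and removing doublets gave 10 with 9 named.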
